A study of Mus musculus with 6 samples.

Results

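The spots described here were the 80 in each coronal mouse brain section with the highest summed level of 5 genes used as markers of piriform and lateral cortex (Lmo3, Frzb, Cdhr1, Syt17 and Plk5). They were chosen by a score on the measured values: in each spot with at least 500 UMIs (unique molecular identifiers, each standing for 1 captured transcript), the counts of the 5 genes were scaled to 10000 UMIs per spot, log transformed and summed. This gave 480 of 16741 spots, or 2.87%, called the high-scoring spots below. Levels are in CPM, a gene's UMIs summed over the spots of a section and scaled to the same total in every set of spots. The score selected on these 5 genes, so their height over the rest of the section is a description and was not tested.

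The piriform cortex is the largest area of the olfactory cortex, a paleocortex of 3 layers that receives the axons of the olfactory bulb's mitral and tufted cells. Its principal cells are glutamatergic neurons packed in the second layer, which also keeps immature, doublecortin-bearing neurons in the adult. A Visium spot samples a patch of tissue with a mixture of cell types, so in all values below fewer cells of a type and less RNA per cell cannot be told apart.

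The study placed frozen coronal sections of male C57BL/6J mice, cut at 16 micrometres near Bregma -1.655 mm, on Visium capture areas and sequenced the spatially barcoded RNA. There were 2 males at each of 3 ages: 6 months (young), 18 months (middle) and 21 months (old). Both young sections, middle 1 and old 1 lay on slide 1, and middle 2 and old 2 on slide 2. No treatment or genetic change is named for any group, and with 2 animals an age the spread within a group rests on 1 difference. The summed high-scoring spots held 3700851 and 2818484 UMIs (young 1 and 2), 2555168 and 3112127 (middle 1 and 2), and 1955060 and 2098452 (old 1 and 2).

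The depth of the high-scoring spots differed by age. Their median was 46288 and 35970 UMIs a spot at young, 32338 and 39810 at middle and 24972 and 27121 at old age. The old sections were the lowest, without overlap with the other ages. The other spots had medians of 29454 and 25802, 25825 and 25462, and 21705 and 20192 in the same order. The part of this fall in the age comparisons was not tested beyond thinning the counts to equal depth. Sections shared between 80.9% and 98.9% of their spot barcodes, because barcodes mark fixed positions on the capture area, and each section was captured on its own area. Of the 80 high-scoring positions, 45 were the same in old 1 and old 2, and young 1 shared none with any other section.

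The label was only in part borne out. Of the 480 spots, 92 (19.2%) held at least 1 UMI of 2 or more of the dentate gyrus genes C1ql2, Dsp and Prox1; Prox1 is the transcription factor that defines dentate granule cells. They are called dentate spots here. They numbered 1 and 27 (young), 26 and 9 (middle), and 11 and 18 (old) a section, so young 1 stood apart from every other section and the counts followed no age. In dentate spots C1ql2 reached 304.5 and 382.2 CPM at young age, 391.0 and 460.6 at middle age and 395.9 and 443.6 at old age. In the 388 remaining spots it lay between 0 and 1.56. The split itself used C1ql2, Dsp and Prox1, so their contrast between the 2 kinds of spot is a description of the split.

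Genes that the split did not use also stood apart. Synpr, a synaptic vesicle protein of mossy fibre terminals, ranged over the sections from 349.3 to 609.1 CPM in dentate spots and from 125.8 to 204.8 in the remaining spots. Reln, the secreted glycoprotein reelin, ranged from 0 to 23 in dentate spots and from 61.9 to 94.1 in the remaining spots. Tbr1, a transcription factor of cortical glutamatergic neurons, ranged from 43.1 to 87.0 and from 137.2 to 195.8. Of the scoring genes, Plk5 ranged from 95.2 to 250.9 CPM in dentate spots, Syt17 from 95.2 to 176.4 and Lmo3 from 152.3 to 261.5, against 353.3 to 534.1 for Lmo3 in the remaining spots. Most spots with these genes were not selected, since 766 further dentate spots lay outside the 480. Those 766 were not alike to the selected ones. Over the sections they held 124.6 to 183.1 CPM of C1ql2 and 1926 to 4365 of the myelin gene Mbp. In the selected dentate spots Mbp was 2855 in young 1, which held 1 such spot, and 448.1 to 772.2 in the other sections. That 1 spot also gave the highest Synpr value and the lowest Lmo3, Plk5 and Syt17 values above. The age comparisons below were therefore also made in the 388 remaining spots, an alternative added after the data had been seen.

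**Figure D1:**
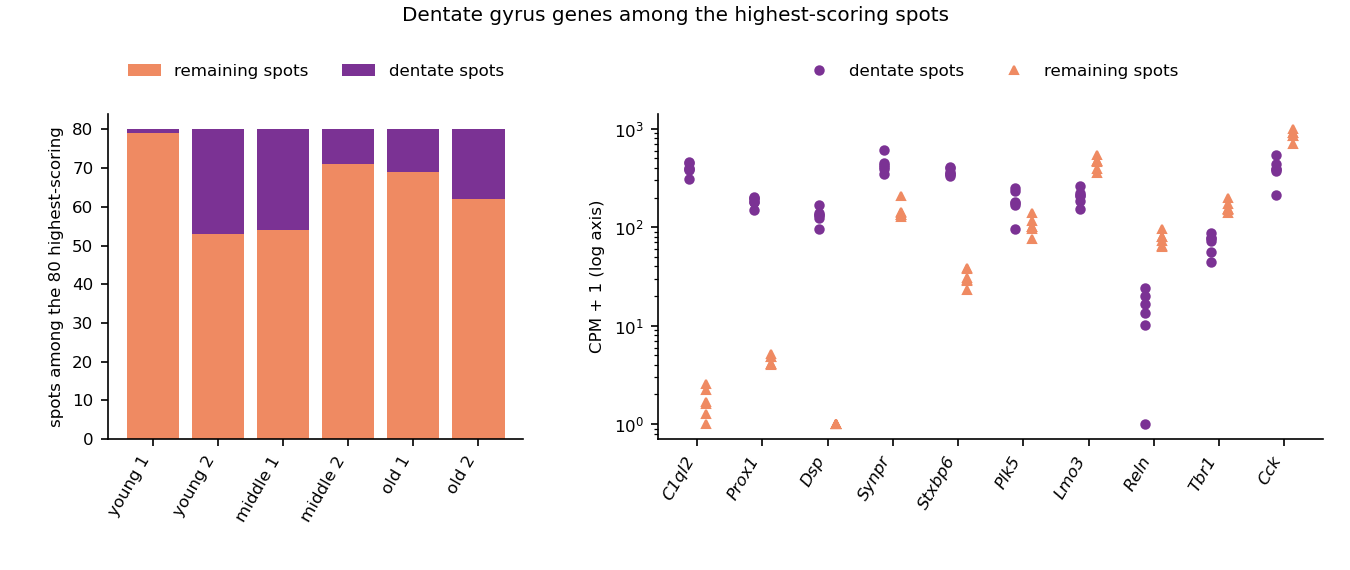
Left, bars of the number of dentate and remaining spots among the 80 highest-scoring spots of each section. Right, level of 10 genes in CPM plus 1 on a log axis, each point 1 section. Dentate spots number 1 to 27 a section, and the 2 kinds do not overlap in Synpr, Stxbp6, Lmo3, Reln, Tbr1 or Cck; C1ql2, Prox1 and Dsp defined the split.

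Among the scoring genes, Lmo3, which encodes a LIM-only transcriptional cofactor, was the most abundant. It had 350.5 CPM in both young sections, 370.2 and 452.4 at middle age and 493.6 and 403.6 at old age, against 59.9 to 75.1 in the other spots. Every high-scoring spot held a UMI of it, as did 51.1% to 58.8% of other spots. Cdhr1, a cadherin-related protein known from photoreceptors and from mitral cells of the olfactory bulb, stood farthest above the rest: 42.4 and 17.4 CPM at young age, 32.9 and 50.8 at middle age and 46.0 and 26.7 in the old ones, against 1.84 to 2.86 in the other spots. It was lowest in young 2. Between 25.9% and 53.8% of each section's Cdhr1 UMIs came from the 80 spots.

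Frzb, a secreted Wnt antagonist, measured 73.0 and 47.5, 60.7 and 73.3, and 82.3 and 66.2 CPM at the 3 ages. The values of Syt17, a synaptotagmin-related membrane trafficking protein, were 108.4 and 161.4, 131.9 and 126.9, and 156.5 and 138.7. Plk5, a polo-like kinase expressed in neurons, stood at 75.7 and 121.3 in young, 137.4 and 102.8 in middle and 154.5 and 128.2 in old sections. Old lay above young without overlap for Lmo3 and Plk5, and the 2 ages overlapped for the other 3 genes; these levels are a description, since the score chose spots by them within each section. Over whole sections, where no spot was chosen, none of the 5 differed between old and young in edgeR's quasi-likelihood test, with adjusted p from 0.587 (Plk5) to 0.975 (Cdhr1).

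**Figure D2:**
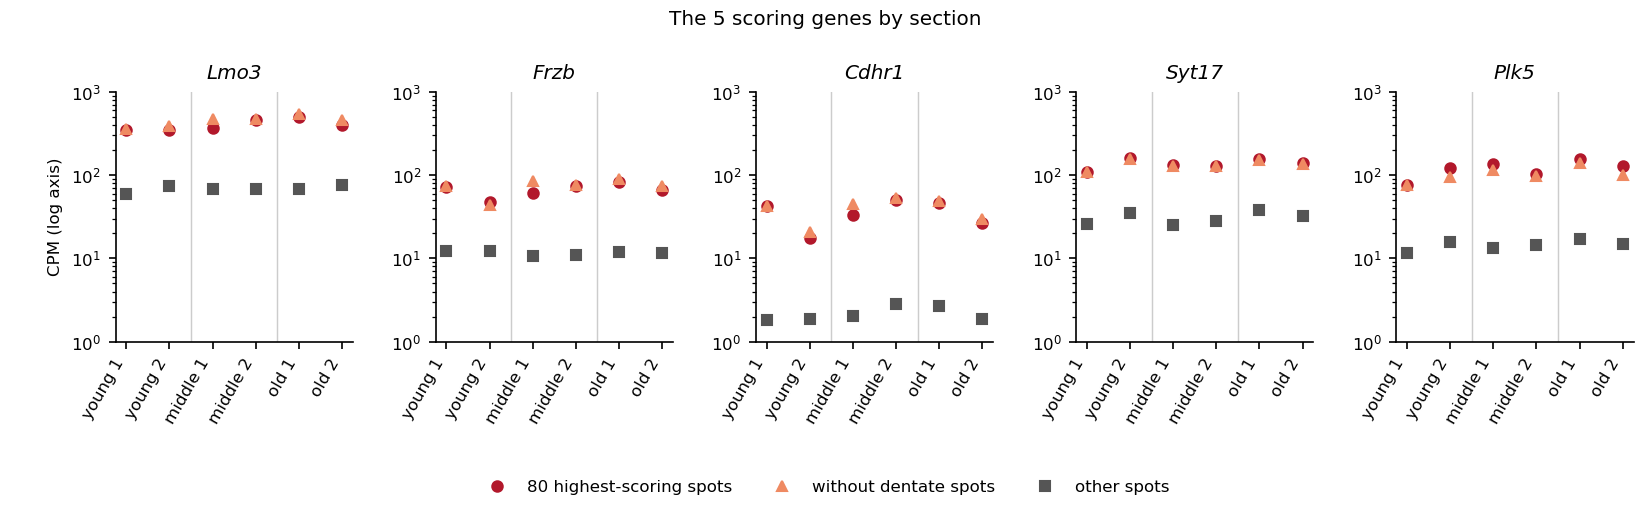
Level of the 5 scoring genes in CPM on a log axis, 1 point a section, in all high-scoring spots, in those left without dentate spots and in the other spots. The high-scoring spots lie above the other spots in every panel because the score used these genes, and Cdhr1 in young 2 is the lowest of its 6 values, at 17.4.

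In GENCODE M21 (GRCm38) the protein-coding scoring genes lie on 5 chromosomes: Lmo3 at chr6:138362918-138581968, Frzb at chr2:80411970-80447625, Cdhr1 at chr14:37077857-37098347, Syt17 at chr7:118380717-118448222 and Plk5 at chr10:80356459-80365489. At the threshold, the 80th and 81st spots of a section scored 2.465 and 2.457 in young 1, 2.91 and 2.898 in young 2, 2.698 and 2.677 in middle 1, 2.918 and 2.909 in middle 2, 3.424 and 3.41 in old 1, and 3.028 and 3.022 in old 2. The other spots' median score was between 0.626 and 0.718. The selection thus had no gap at its edge, and the highest cut-off was in old 1. When a scoring gene was left out of the score, its own level over the other spots was still 1.53 to 3.65 log2 units higher in the spots chosen with the other 4, over all genes and sections.

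Genes outside the score describe what the high-scoring spots contained. At a mean of at least 20 CPM, 7285 such genes were compared; 87 stood 2-fold or more above the other spots in all 6 sections and 116 stood 2-fold or more below in all 6. These counts describe the spots the score chose and were not tested. Without dentate spots the counts were 89 and 124 of 7207.

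The leading genes on the high side were neuronal. Hrk, a pro-apoptotic BH3-only protein of neurons, had the highest smallest ratio in the 480 spots, 2.27 to 2.62 log2 units over the 6 sections, and averaged 73.4 CPM (SD 8.41, n = 6) against 12.4 (SD 0.957, n = 6) in the other spots. Mas1, the receptor for angiotensin 1-7, followed at 2.04 to 2.29. Igfn1 ranged from 2.02 in young 2 to 3.44 in old 1. Slc30a3, the transporter that loads zinc into synaptic vesicles of glutamatergic terminals, was 2.01 to 2.58 log2 units higher and averaged 310.2 CPM. Several further genes act at synapses or on cortical wiring: Nptxr, the neuronal pentraxin receptor (1.68 to 2.20, mean 1145 CPM), Olfm1, a secreted olfactomedin-domain glycoprotein (1.59 to 1.76, mean 3037), and Tiam1, a guanine nucleotide exchange factor for Rac (1.58 to 1.97). Apaf1, the core of the apoptosome, was 1.94 to 2.47 higher.

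Further genes among the first 20 were Rasl10a, Tafa2, Rprm, Ptpro, Limd2, Lmo7, Rfx3, Smoc2, Tox3, Tmem132e and Myo5b, with smallest ratios from 1.51 (Myo5b) to 2.01 (Rasl10a). Part of this list moved with the dentate spots. Without them the smallest ratio of Igfn1 was 2.58, above that of Hrk at 2.27, and that of Mas1 was 1.68. The median ratio of Smoc2 went from 2.12 to 1.46 and that of Rfx3 from 2.12 to 1.81, while that of Tmem132e went from 1.76 to 2.13 and that of Tox3 from 1.78 to 2.10. Ttr, the transthyretin of choroid plexus, was the farthest below the other spots, by -6.21 to -3.38 log2 units. The thalamic genes Prkcd and Tcf7l2 were at -3.79 to -3.32 and -4.16 to -3.18. The glial genes Trf (iron transport), Mobp (myelin) and Apod (a lipid carrier) were at -3.29 to -2.75 across all 3.

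**Figure D3:**
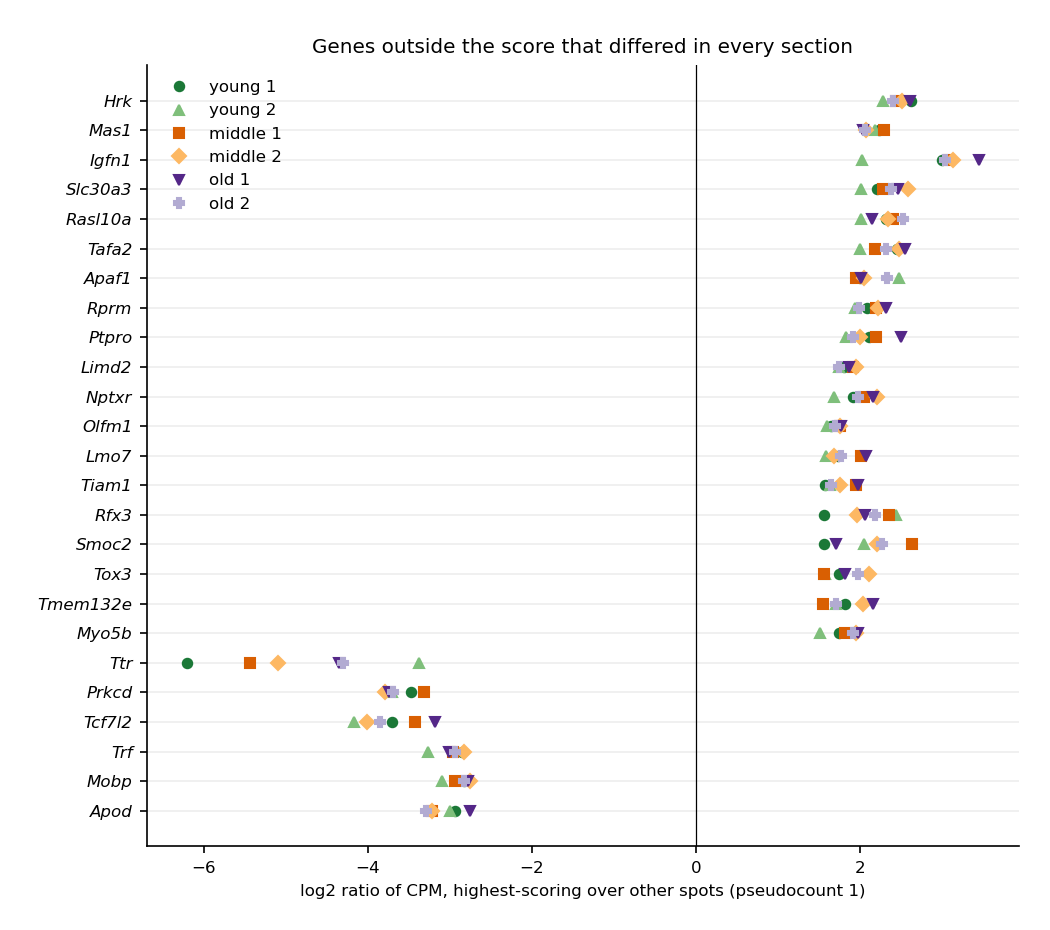
Log2 ratio of CPM in the high-scoring spots over the section's other spots, 1 point a section, for the leading genes named in the text and the 6 trailing genes, all outside the score. The leading genes shown lie at 1.51 or more in every section and the 6 trailing ones at -2.75 or less.

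Marker lists of other regions, chosen with earlier results of these data known, were read in the 388 remaining spots. Their log2 ratios were taken over other spots that included the 92 dentate spots. All 11 myelin genes were lower than in the other spots in all 6 sections, with a median of -2.70 log2 units, as were all 8 thalamic genes (-3.28) and all 8 choroid plexus genes (-2.73). Of the 9 hippocampal genes, 8 were lower in all 6 sections, 3 of which (C1ql2, Dsp and Prox1) had been used to take the dentate spots out; Wipf3 was higher in all 6, by 0.355 to 0.88. Of 12 further genes of piriform and olfactory cortex, 7 were higher in all 6 sections and 3 were lower. This was not particular to these spots: the list summed to 1348 to 1546 CPM in the remaining spots, 1103 to 1197 in the other spots and 1616 to 2032 in 80 spots a section chosen for isocortical layer 2/3. Of 7 layer 2/3 genes, 4 were higher than in the other spots in all 6 sections and 2 were lower. Of 10 genes of basolateral and cortical amygdala, 3 were higher in all 6 sections and 4 were lower. Their sum was 787 CPM in the remaining spots of young 2 and 271.6 to 342.1 in those of every other section. In the other spots it was 251.1 to 299. The remaining spots of young 2 thus differed in this list, and its part in the age comparisons was not tested.

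The higher olfactory cortex genes included Nrp2, a semaphorin receptor, at a median of 1.59 log2 units, Bhlhe22, a cortical bHLH factor, at 1.46, Reln at 1.41 and Tbr1 at 0.99. Slc17a7, the vesicular glutamate transporter of cortex, ranged from 990.6 to 1448 CPM in the remaining spots against 463.8 to 583.5 in the other spots. Of 8 genes of the endopiriform nucleus and claustrum, 2 were higher in all 6 sections (Gnb4 at 0.0922 to 0.522 and Synpr at 0.228 to 0.824) and 4 were lower, among them Nr4a2, the orphan nuclear receptor that marks claustrum, at -1.83. Rprm, listed as a deep-layer isocortical gene, was 2.31 higher, and Foxp2 of the same list 2.96 lower (median -2.96). Fezf2, a factor of deep-layer projection neurons in the olfactory list, was lower, at -1.75.

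Age was compared with edgeR's quasi-likelihood test on the UMIs summed per section. In the 480 high-scoring spots 11959 genes were tested. At adjusted p under 0.05, 0 genes (0%) differed between old and young, 0 (0%) between middle and young, and 0 (0%) between old and middle, and DESeq2 called 0 in each. At unadjusted p under 0.05, 218 genes (1.82%) were higher and 192 (1.61%) lower in old than in young sections. For middle against young these were 159 (1.33%) and 181 (1.51%), and 191 (1.6%) had such a p between old and middle. The 2 young sections differed from each other more than the others did: the chi-square of their counts per degree of freedom was 9.14, against 3.68 for the middle and 1.97 for the old pair, and they held 1 and 27 dentate spots. They also differed in the share of high-scoring spots above the 90th centile of the other spots in further region lists. This was 1.25% and 22.5% for amygdala, 0% and 20% for striatum, and 0% and 16.25% for layer 5. Without young 1, 9 genes were called between old and young and 4 between middle and young; without young 2 these were 4 and 5.

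In the 388 remaining spots, 1 of 11084 genes (0.00902%) was called between old and young and 1 (0.00902%) between middle and young, the same gene, AC149090.1, a protein-coding gene that GENCODE M21 places on an unplaced scaffold. Its values were 126.6 and 166.3 CPM in young, 312.1 and 347.7 in middle and 337.1 and 300.0 in old sections. The young values lay below all the others. It rose by 1.10 log2 units (SE 0.11, adjusted p = 1.04e-05, edgeR) in old and by 1.18 (SE 0.11, adjusted p = 2.05e-06) in middle sections. It rose in the other spots too, by 0.94 (SE 0.09, adjusted p = 0.0247), and in all 480 spots the change was 1.03 (SE 0.30, adjusted p = 0.9995). Between old and middle 0 genes (0%) were called in the remaining spots, with 360 (3.25%) at unadjusted p under 0.05. For old against young, 455 genes (4.11%) were higher and 414 (3.74%) lower at that unadjusted p.

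The test of whether the old against young change differed between the high-scoring and the other spots called 2 of 17292 genes (0.0116%), Hspa1a and Hspa1b, and DESeq2 also called 2. Both encode the stress-inducible 70 kDa heat shock protein, a chaperone, and lie side by side on chromosome 17 (Hspa1b at 34956436 to 34959238 and Hspa1a at 34969190 to 34972156 on the minus strand of GRCm38). In the other spots Hspa1a measured 54.5 and 57.7 CPM in young, 15.8 and 16.9 in middle and 18.3 and 15.1 in old sections, and it fell by 1.80 log2 units between young and old (change -1.80, SE 0.08, adjusted p = 0.00055). In the high-scoring spots it measured 38.9 and 26.6, then 24.7 and 30.5, then 28.6 and 27.6. The young and old values overlapped there, and the change was -0.28 (SE 0.24, adjusted p = 0.9995). The difference between the 2 changes was 1.51 log2 units (SE 0.24, adjusted p = 0.00411).

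Hspa1b in the other spots went from 53.3 and 50.7 in young to 15.7 and 13.96 in middle and 15.7 and 12.4 in old sections, a change of -1.94 (SE 0.12, adjusted p = 0.00522). In the high-scoring spots it measured 62.4 and 50.0, 38.8 and 44.0, and 48.1 and 35.7 at the 3 ages, a change of -0.47 (SE 0.20, adjusted p = 0.9995). The young values were above the old ones in both sets. The difference between the changes was 1.45 (SE 0.20, adjusted p = 0.000270). Without dentate spots the differences were 1.61 (SE 0.20) for Hspa1a and 1.55 (SE 0.17) for Hspa1b, and both passed. Both calls were lost without old 1 (adjusted p = 0.16 and 0.115), under the newer quasi-dispersion (0.495 and 0.0908) and with at least 10 counts required in every section (0.379 and 0.0882), and Hspa1a alone was lost without old 2 (0.336).

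The 2 genes are near-identical copies, so reads may have been divided between them and their separate values are uncertain. Their upstream sequences from RefSeq (GRCm38.p6), the 250 bases before each start on the minus strand of chr17, are shown because the 2 genes moved together; capitals mark GAANNTTC, a pair of inverted heat shock factor half-sites. The sequences agree at 247 of 250 bases. GAANNTTC occurs once in each, and the related TTCNNGAA does not occur in these windows. The search used 1 strand, since both motifs read the same on the other. Of 32851 windows of the same length, 6.69% hold GAANNTTC and 7.17% TTCNNGAA.
Hspa1a, chr17:34972157-34972406: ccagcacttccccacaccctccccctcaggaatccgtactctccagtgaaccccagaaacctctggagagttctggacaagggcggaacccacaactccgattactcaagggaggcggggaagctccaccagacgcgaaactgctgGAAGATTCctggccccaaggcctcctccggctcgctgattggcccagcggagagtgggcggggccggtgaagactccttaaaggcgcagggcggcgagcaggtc
Hspa1b, chr17:34959239-34959488: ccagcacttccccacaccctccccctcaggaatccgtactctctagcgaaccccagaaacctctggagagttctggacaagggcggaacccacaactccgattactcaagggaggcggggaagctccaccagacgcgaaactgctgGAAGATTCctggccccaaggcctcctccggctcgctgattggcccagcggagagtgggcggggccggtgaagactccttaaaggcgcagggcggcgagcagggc

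Against the 80 spots a section chosen in the same way for isocortical layer 2/3, the difference in age change was called for 0 of 12578 genes (0%) by edgeR and 0 by DESeq2, with 347 (2.76%) at unadjusted p under 0.05. Hspa1a in the layer 2/3 spots was 36.1 and 51.9 CPM in young, 31.5 and 24.9 in middle and 29.3 and 24.1 in old sections. The difference of its change from that in layer 2/3 was 0.47 (SE 0.39, adjusted p = 0.9998), and that of Hspa1b was -0.002 (SE 0.23). No difference from layer 2/3 passed for either gene. Without dentate spots 1 gene (0.00829%) was called against layer 2/3: Nnat, which encodes neuronatin, a small proteolipid. It measured 155.4 and 190.8, 132.0 and 193.0, and 144.1 and 149.1 in the remaining spots, against 12.3 and 18.3, 20.9 and 21.2, and 38.5 and 24.5 in layer 2/3. The difference in age change was -1.35 (SE 0.23, adjusted p = 0.0106, edgeR). It was tested against as many layer 2/3 spots as remaining spots, with dentate spots barred. The layer 2/3 levels given are those of the 80 spots a section.

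Without dentate spots 56 of 17104 genes (0.327%) differed from the other spots in their age change, 32 higher and 24 lower. When the 80 places were refilled with the next spots that were not dentate spots, 36 were called, and 26 were in both. In both tests the dentate spots were counted among the other spots. On the low side were the microglial genes Tyrobp and C1qa. Of 29 glial and immune activation genes 5 were called, with a median of -0.71. Of 11 homeostatic microglial genes 0 were called, with a median of -0.15 (-0.01 over all genes). Tyrobp, the signalling adaptor of microglial receptors such as TREM2, measured 48.2 and 34.8 CPM in young, 44.4 and 42.2 in middle and 34.1 and 30.1 in old remaining spots. In the other spots it went from 56.5 and 54.8 to 75.2 and 85.1 and then 88.8 and 101.9. It rose in the other spots by 0.72 (SE 0.08, adjusted p = 0.0309), and its change in the remaining spots differed from that (difference -1.203, SE 0.18, adjusted p = 4.29e-08).

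C1qa, a chain of the complement initiator C1q, had the following levels: 46.6 and 42.6, 50.7 and 51.4, and 37.6 and 37.9 in the remaining spots, and 66.5 and 69.8, 88.0 and 97.3, and 92.95 and 122.5 in the other spots, where its change of 0.61 (SE 0.12) had an adjusted p of 0.173. The difference was -0.93 (SE 0.17, adjusted p = 9.36e-05). In the 80 layer 2/3 spots a section the Tyrobp change was 0.10 (SE 0.13, adjusted p = 0.941, edgeR). The difference of the remaining spots from an equal number of layer 2/3 spots was -0.46 (SE 0.22, adjusted p = 0.82). In all 480 spots neither gene passed against the other spots (adjusted p = 0.216 and 0.209).

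Nr4a2 had the largest difference on the low side. It measured 31.3 and 21.3 CPM in young, 13.1 and 10.97 in middle and 9.41 and 9.62 in old remaining spots, so the young values lay above all the others. Elsewhere it was 50.6 and 56.2, 47.5 and 43.0, and 53.4 and 49.3. The difference was -1.51 (SE 0.26, adjusted p = 1.94e-05). Its change within the remaining spots, -1.57 (SE 0.28), had an adjusted p of 0.0556, and after refilling the difference was -1.15 (SE 0.85) with an adjusted p of 0.945. Calb2, the calcium buffer calretinin, was also lower (-1.22, SE 0.28, adjusted p = 0.0158). So were Kcnab1, a potassium channel subunit (-0.89, SE 0.19, adjusted p = 0.00253), and C1ql3, a synaptic C1q-like protein (-0.85, SE 0.22, adjusted p = 0.0434). In all high-scoring spots, dentate spots included, the differences of Nr4a2, Calb2, Kcnab1 and C1ql3 from the other spots did not pass.

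On the high side, beside the heat shock genes, stood Rnf152 (1.19, SE 0.31, adjusted p = 0.0434), an E3 ubiquitin ligase of lysosomes, and Fat1 (1.15, SE 0.27, adjusted p = 0.0146), an atypical cadherin. Cdkn1a, the cell cycle inhibitor p21, measured 22.2 and 17.7, 27.5 and 26.4, and 29.4 and 33.1 in the remaining spots, and 15.1 and 20.9, 10.1 and 11.8, and 12.96 and 11.96 in the other spots. The difference in its change was 1.06 (SE 0.23, adjusted p = 0.0043). Unc5c, a netrin receptor, was at 0.95 (SE 0.24, adjusted p = 0.039). None of these 4 passed in all 480 spots.

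Cplx2 was chosen after its values were seen. It encodes complexin 2, a regulator of vesicle fusion, and in the remaining spots it went from 407.9 and 491.2 CPM in young to 644.9 and 603.8 in middle and 721.2 and 634.9 in old sections, with no overlap between young and old. Elsewhere it was between 214.7 and 276.6 at all ages. The difference was 0.54 (SE 0.09, adjusted p = 3.28e-06), and the change within the remaining spots, 0.56 (SE 0.10), had an adjusted p of 0.0556. In all high-scoring spots, dentate spots included, the difference of Cplx2 from the other spots did not pass.

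**Figure D4:**
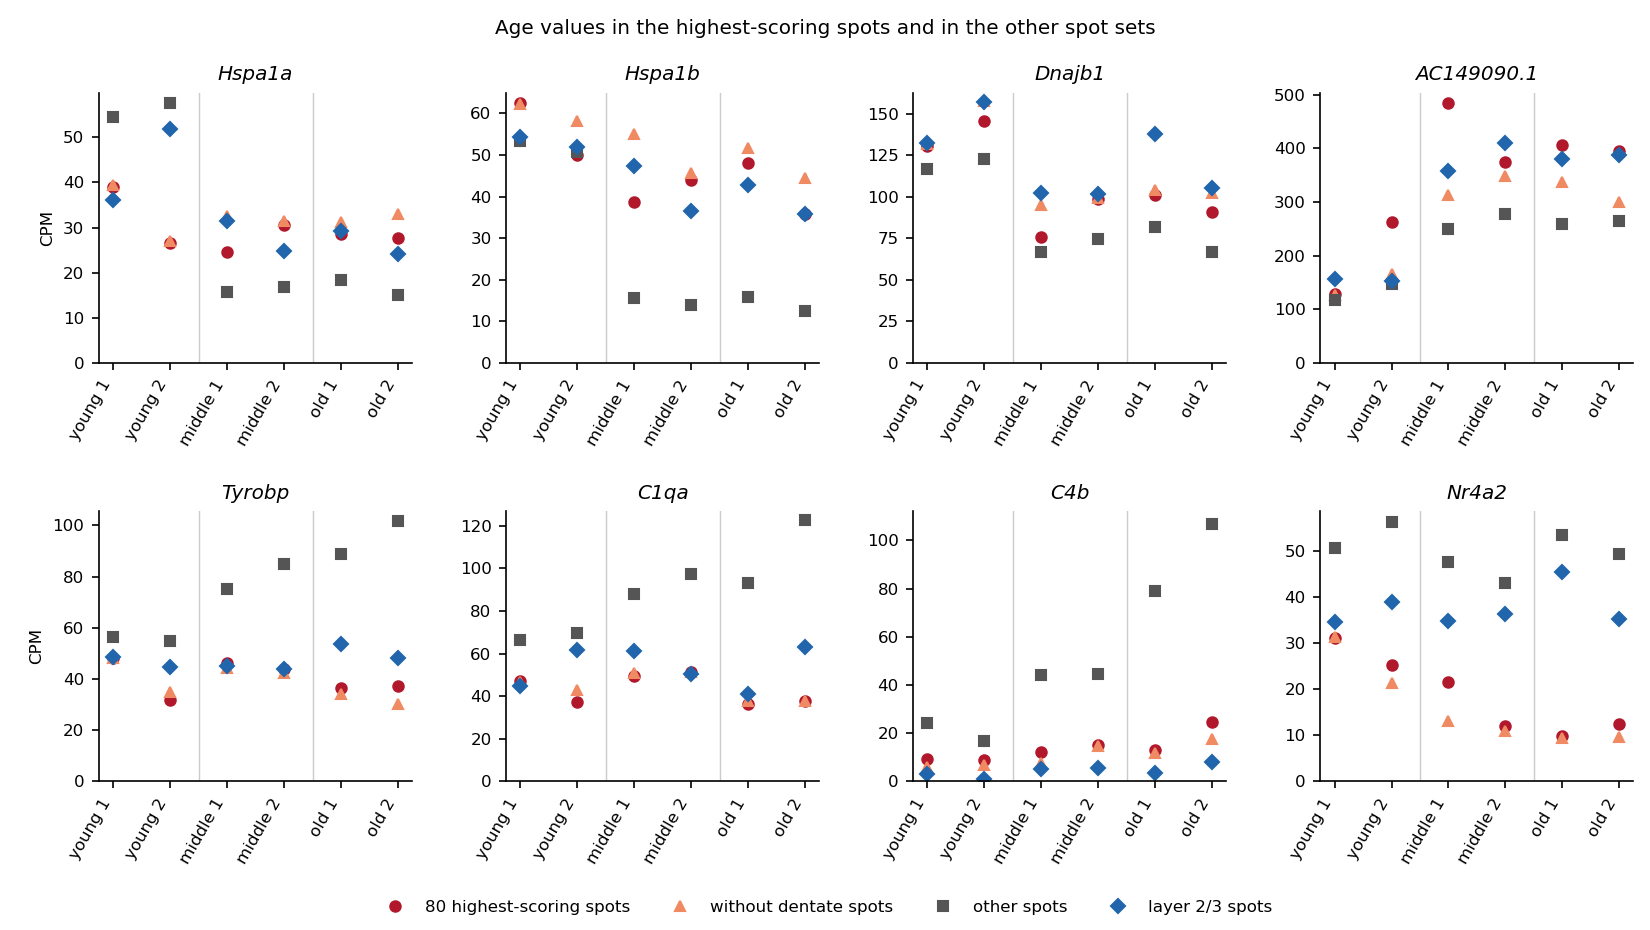
Level in CPM of 8 genes by section, 1 point a section, in all high-scoring spots, those left without dentate spots, the other spots and the layer 2/3 spots. Hspa1a and Hspa1b in the other spots drop after 6 months to 18.3 and 15.7 or less, while in the high-scoring spots they stay at 24.7 and 35.7 or more; Tyrobp in the other spots is 56.5 or less at 6 months and 88.8 or more at 21 months.

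Gene lists were read by the number called and their median log2 change, beside a median of -0.003 over all genes tested in the high-scoring spots. Of 25 glial and immune activation genes tested in these spots, 0 were called between old and young by edgeR, and the median was 0.03. At unadjusted p under 0.05, 5 were higher and 0 lower (1.82% and 1.61% of all genes). In the other spots 5 of 29 were called (0.165% of all genes were called there), all 29 changes were above 0 and the median was 0.59. In layer 2/3 spots 0 of 25 were called, where 0.0163% of all genes were, with a median of -0.01. The difference in age change from the other spots had a median of -0.61 over 29 genes (-0.01 over all genes). By unadjusted p, 14 of the 29 were lower and 0 higher, where 1.71% of all genes were lower and 1.49% higher, and 0 passed after adjustment. Without dentate spots 5 of the 29 were called, with a median of -0.71.

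C4b, complement component 4B, measured 9.19 and 8.87 CPM in young, 12.1 and 15.1 in middle and 12.8 and 24.8 in old high-scoring spots. Old and young did not overlap, and the change was 1.02 (SE 0.33, adjusted p = 0.9995). It was 0.447 without old 2, and 1.15 (SE 0.35, adjusted p = 0.419) in the remaining spots. Elsewhere it went from 24.1 and 16.8 to 78.8 and 106.8. The difference of C4b from the other spots in age change was -1.45 to -0.918 with 1 section left out. It was called in 3 of 19 settings, but not in the main fit. Gfap, the intermediate filament of astrocytes, was 36.2 and 39.0 in young and 38.9 and 56.7 in old high-scoring spots. Its difference from the other spots was -0.635 to -0.602 with 1 section left out, and was called in 1 of 19 settings. Apoe, the lipid carrier of glia, stood at 1035 and 893.0 in young and 1017 and 1178 in old sections. Trem2, the microglial lipid receptor, was 12.97 and 8.16 in young and 12.3 and 15.3 in old sections. The ranges of Gfap, Apoe and Trem2 overlapped between young and old. In the remaining spots their changes were 0.37 (SE 0.21), 0.12 (SE 0.10) and 0.14 (SE 0.30), and none passed (adjusted p = 0.712, 0.839 and 0.944). The summed myelin list lay between 953.7 and 1405 CPM in the high-scoring spots and between 7223 and 8525 in the other spots; its part in these differences was not tested.

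The 16 interferon genes were thinly measured, with 7 tested in the high-scoring spots, 0 called, 0 at unadjusted p under 0.05 and a median of 0.15, against 16 tested, 2 called and a median of 0.53 in the other spots, where 0.165% of all genes were called. In the remaining spots 7 were tested, 0 were called and the median was 0.08. Among 11 homeostatic microglial genes 0 were called, and 1 had an unadjusted p under 0.05: Cx3cr1, the fractalkine receptor, with 10.5 and 7.45 CPM in young and 22.0 and 12.4 in old sections. The 14 homeostatic astrocyte genes had a median of 0.06 and 0 calls.

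Of 16 heat shock and chaperone genes, 0 were called between old and young by edgeR; 4 were lower and 0 higher at unadjusted p under 0.05 (1.61% and 1.82% of all genes), 1 change was above 0, and the median was -0.25. Between middle and young 0 were called, 8 were lower and 1 higher by unadjusted p (1.51% and 1.33% of all genes), and the median was -0.29. In the remaining spots 0 of 15 were called between old and young, 6 were lower by unadjusted p (3.74% of all genes) and the median was -0.23. In the other spots 5 were called (0.165% of all genes), with a median of -0.19. Dnajb1, the co-chaperone Hsp40, was 130.8 and 145.5 CPM in young, 75.5 and 98.97 in middle and 101.3 and 91.0 in old high-scoring spots, with no overlap between young and either later age. Its change between young and old was -0.55 (SE 0.15, adjusted p = 0.9995), and it fell by 0.65 after refilling without dentate spots (change -0.65, SE 0.12, adjusted p = 0.0374). Its difference from the other spots was 0.17 (SE 0.14, adjusted p = 1.00). Chordc1, an HSP90 co-chaperone, was 66.5 and 75.6, 59.9 and 52.0, and 51.2 and 45.8 at the 3 ages (change -0.58, SE 0.15, adjusted p = 0.9995, and -0.57, SE 0.15, adjusted p = 0.305 in the remaining spots).

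Neat1, the long noncoding RNA that builds paraspeckles, was 14.6 and 20.9 in young, 30.9 and 28.0 in middle and 33.2 and 32.9 in old high-scoring spots, with the young values below all others. Its change of 0.88 (SE 0.21, adjusted p = 0.9995) was the same in the other spots to within the error (difference -0.01, SE 0.20, adjusted p = 1.00), where it was called (0.88, SE 0.09, adjusted p = 0.0247). After refilling without dentate spots it rose by 1.14 (SE 0.21, adjusted p = 0.0461). Of 13 genes of the glucocorticoid and NF-kB response 0 were called, 1 was higher and 2 were lower by unadjusted p (1.82% and 1.61% of all genes). Nfkbia, the inhibitor of NF-kB, was 31.9 and 25.9, 17.2 and 19.0, and 25.6 and 22.9 at the 3 ages, and Sgk1, a glucocorticoid-induced kinase, 60.8 and 62.8, 52.0 and 60.7, and 51.2 and 42.4. Old lay below young for both, and neither change passed. With 1 section left out, the difference of Sgk1 from the other spots in age change was 0.566 to 0.961. This difference was called in 7 of 19 settings, but not in the main fit.

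Of 26 glutamate transmission genes 0 were called, 2 were higher and 1 lower by unadjusted p (1.82% and 1.61% of all genes), with a median of 0.04. In the remaining spots 2 of the 26 were called for a difference from the other spots in age change (0.327% of all genes). By unadjusted p, 8 of these differences were higher and 3 lower (3.34% and 3.92% of all genes). Slc17a7 was 985.4 and 1061 in young and 1390 and 1217 in old high-scoring spots, without overlap (change 0.32, SE 0.13, adjusted p = 0.9995). In the remaining spots the change was 0.30 (SE 0.10, adjusted p = 0.496). Of 19 synaptic vesicle genes 0 were called and 1, Cplx2, was higher by unadjusted p, and of 21 genes of GABA transmission and interneurons 0 were called and 0 had such a p. In the remaining spots 1 of the 19 vesicle genes was called for a difference from the other spots, with 7 higher and 0 lower by unadjusted p. Gad1, which makes GABA, was 142.4 and 216.4 in young and 144.2 and 194.9 in old sections, and the neuropeptide Cck 897.6 and 709.2 and then 655.7 and 902.1. Reln was 77.6 and 52.5 in young and 83.9 and 63.9 in old sections, and Tbr1 149.4 and 116.4 and then 156.0 and 131.5. In all 4 genes young and old overlapped, and the sign of the change turned between alternatives.

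The immature neuron list had 0 of 14 genes called, 0 at unadjusted p under 0.05 and a median of -0.14; 3 of the 14 changes were above 0. In the remaining spots 0 of 14 were called, 2 were lower and 0 higher by unadjusted p (3.74% and 4.11% of all genes), and the median was -0.16. Dcx, the doublecortin of migrating and immature neurons, was 18.1 and 11.4 CPM in young, 14.5 and 18.3 in middle and 21.5 and 16.7 in old high-scoring spots, above the 7.52 to 9.51 of the other spots in every section. Its change was 0.37 (SE 0.24, adjusted p = 0.748) in the remaining spots. Sox11, a transcription factor of immature neurons, was 25.1 and 29.1, 27.0 and 19.6, and 26.6 and 15.2. It was called in the other spots, where it fell by 0.58 (change -0.58, SE 0.07, adjusted p = 0.0329), but not in the high-scoring spots (-0.41, SE 0.26, adjusted p = 0.9995), and the difference was 0.14 (SE 0.27, adjusted p = 1.00).

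Among the other lists, 0 genes were called. At unadjusted p under 0.05, 1.82% of all genes were higher and 1.61% lower in the high-scoring spots. These shares were 4.11% and 3.74% in the remaining spots. Endothelial genes had a median of 0.29 in the high-scoring spots (14 tested, 1 higher by unadjusted p, Cldn5), 0.17 in the remaining spots (12 tested, 2 higher and 1 lower) and -0.05 in the other spots. Mitochondrially encoded genes had a median of -0.22 with all 13 below 0 and 0 at unadjusted p under 0.05; the median was 0.215 without young 1 and -0.57 without young 2, and in the remaining spots -0.24 with 3 lower by unadjusted p. Their share of UMIs in the high-scoring spots was 14.4% and 9.25% in young, 11.8% and 11.6% in middle and 10.1% and 10.95% in old sections. The summed haemoglobin list ranged from 1.08 in young 1 to 51.2 CPM in old 1. Oligodendrocyte precursor genes had a median of 0.01 (10 tested, 1 lower by unadjusted p, Gpr17), immediate early genes -0.10 (17 tested, 1 lower), neuromodulator receptors -0.04 (21 tested, 1 higher) and relatives of the scoring genes -0.01 (16 tested, 1 higher and 1 lower).

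**Figure D5:**
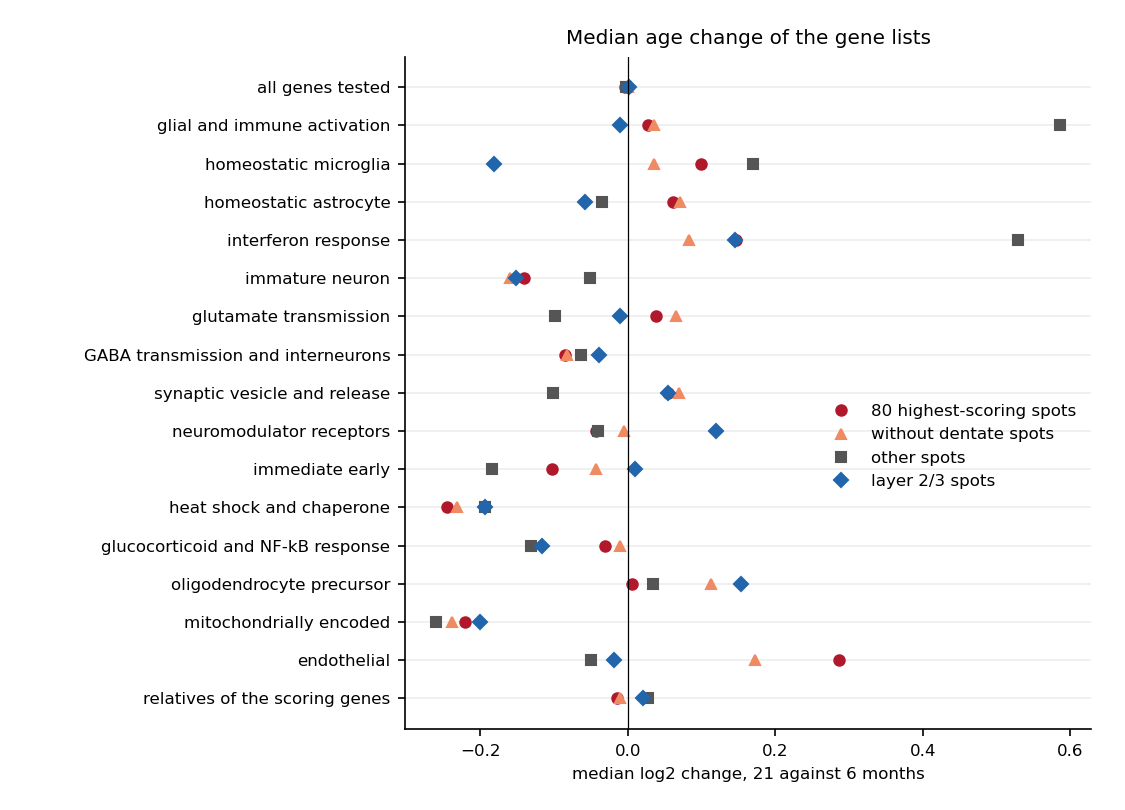
Median log2 change from 6 to 21 months of the gene lists, haemoglobin left out, and of all genes tested, in all high-scoring spots, those left without dentate spots, the other spots and the layer 2/3 spots. Glial and immune activation lies at 0.59 in the other spots and between -0.01 and 0.04 in the 3 other sets; heat shock lies between -0.25 and -0.19 in all 4.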

How the data were processed

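Visium libraries of 6 coronal sections were given as gene by spot matrices. The deposited values are whole-number UMI counts per gene and spot, per the file headers, written by Space Ranger 1.3.1; the submitters' processing notes name Space Ranger 3.1 and the build mm10. The deposited barcode and gene lists are names, not measurements. Of 32285 gene IDs, 32235 matched GENCODE M21, and all 126 genes examined by name were placed.

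Spots under 500 UMIs were left out. Counts were summed per section over each spot set and tested with edgeR 4.0.16 (R 4.3.3): filterByExpr, TMM factors, robust quasi-likelihood F test, Benjamini-Hochberg adjustment over all genes tested, threshold 0.05, all 3 ages in 1 fit. Differences in age change used a fit with section as block. SE is the log2 change divided by the square root of F. Levels are CPM of the summed set, and ratios used a pseudocount of 1. Both fits were tested on simulated data. Tables and figures used Python with pandas and matplotlib.

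The members and lists were chosen with earlier results of these data known. Layer 2/3 spots were the 80 highest for Cux2, Rasgrf2, Stard8, Lamp5 and Otof. For the test without dentate spots they were as many as the remaining spots, with dentate spots barred. Levels and age changes printed for layer 2/3 are those of the 80 spots. Genes were named by rule: called genes with mean of at least 10 CPM by size of change (for age contrasts also without overlap), 20 leading and 6 trailing genes at a mean of at least 20, fixed genes, and up to 4 genes a list; others are said to be chosen after their values were seen. A gene that the rule names is not reported here. The same rule was repeated without dentate spots. Replicate numbers did not pair sections: deviations of same-numbered sections correlated at -0.477, 0.0678 and -0.0812 over 9474 genes. P-values of the age comparisons rest on the spread between 2 animals an age, estimated over the 3 ages together. Those of the differences in age change rest on the spread between animals in the contrast of the 2 spot sets of a section.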

Additional observations from a re-analysis of the deposited data

Results flagged for a closer look

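The age change of Hspa1a differed between the high-scoring and the other spots by 1.51 log2 units and that of Hspa1b by 1.45, in a test of the difference itself. Levels in the other spots dropped between 6 and 18 months, and the change in the high-scoring spots passed for neither gene. The 2 genes are near-identical copies and are not independent of each other. Neither difference passed in the comparison with layer 2/3 spots, where the differences were 0.47 and -0.002 (edgeR, adjusted p = 0.9998 for both). The groups of 2 sections were too small for a search for outlying sections.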

How the results depend on the processing

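In the counts of called genes, 0 between old and young became 4 with no filter, 1 without dentate spots and 4 after refilling; 0 between middle and young became 5, 1 and 2; 0 between old and middle became 2 with no filter and 1 after refilling. The 2 differences from the other spots became 14 with no filter, 0 with at least 10 counts in every section, 0 under the newer quasi-dispersion, 5 with 40 spots, 8 with 160, 7 with equal weight of the 5 genes, 40 with thinned spots, 56 without dentate spots and 36 after refilling. The 0 differences from layer 2/3 became 3 with no filter, 1 with equal weight, 2 with thinned spots, 1 without dentate spots and 1 after refilling. Leaving out 1 section gave 0 to 9, 0 to 5 and 0 to 1 calls in the 3 age comparisons, 0 to 56 against the other spots (56 without young 1, 40 without young 2, 0 without old 1, 7 without either middle section) and 0 to 12 against layer 2/3. DESeq2, RLE factors and the removal of mitochondrial, haemoglobin and immediate early genes changed none of these 5 counts. A slide block, run for the 3 age comparisons, gave 0 calls in each. Slide 1 alone leaves 1 middle and 1 old section, so its 0 calls against young say nothing about stability. The fit with a replicate block called 0 genes in each age comparison, and for the differences section was itself the block.

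The 87 genes 2-fold higher in every section became 49 with 160 spots and 31 with thinned spots. Thinning each spot to 5000 UMIs before scoring kept between 45% (young 2) and 67.5% (middle 2) of a section's spots.

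Some age changes turned sign. Gfap was -0.00351 with 40 spots. Reln was -0.0768 with 40 spots, -0.00717 with 160, -0.15 with equal weight and -0.0915 with thinned spots. Tbr1 was -0.0323 with thinned sums, and Gad1 was 0.136 with 40 spots and 0.0376 with equal weight. Leaving out 1 section gave ranges of -0.0297 to 0.341 for Apoe, -0.026 to 0.796 for Trem2, -0.58 to 0.12 for Hspa1a, -0.045 to 0.783 for Dcx, -0.19 to 0.53 for Reln, -0.17 to 0.34 for Tbr1, -0.35 to 0.14 for Gad1 and -0.35 to 0.18 for Cck, and of -0.77 to 0.16 for the difference of Kcnab1 from the other spots. Medians of 10 lists also turned sign when 1 section was left out: mitochondrial -0.57 to 0.215, glial and immune -0.148 to 0.301, homeostatic microglia -0.156 to 0.305, astrocyte -0.0259 to 0.246, glutamate -0.105 to 0.207, neuromodulator -0.152 to 0.15, glucocorticoid and NF-kB -0.195 to 0.0298, oligodendrocyte precursor -0.0111 to 0.252, relatives of the scoring genes -0.0832 to 0.0608 and haemoglobin -1.32 to 4.42. Of 369 recomputed list medians 59 moved by more than the spread between replicates. The cause of these moves was not tested.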
